A study of Mus musculus with 6 samples.

Results

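This account covers 10 genes of the TREM2, Siglec and ITAM signalling system of myeloid cells, out of 53379 gene identifiers counted in 6 RNA sequencing libraries from mouse cerebral cortex. The genes were listed by name and matched by symbol to Ensembl identifiers. They are the receptor Trem2, the adaptors Tyrobp and Hcst, the sialic acid receptors Cd33, Siglech and Siglece, the kinase Syk, the phospholipase Plcg2 and the phosphatases Inpp5d and Ptpn6. All 10 were found, and all 10 passed the filter on low counts.

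The study compared 3 libraries from Gtf2ird1 knockout mice (genotype GTF2ird1-/-, replicates 5, 6 and 7) with 3 from wild type mice (replicates 1, 3 and 4). All 6 came from brain tissue of animals aged 2 months and labelled C57BL/6, and no treatment is given. Gtf2ird1 encodes a transcription factor of the Williams syndrome region. The sources used here state neither which part of the gene was mutated nor that each library came from its own animal, so a p-value covers the spread among these libraries, which may be technical. The series title names Gad2+ neurons, and no isolation step is described in the sources used here.

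TREM2 is a surface receptor of microglia and other macrophages that binds lipids, lipoproteins and cell debris. It has no signalling motif of its own and relies on the adaptor TYROBP, also called DAP12. TYROBP carries an immunoreceptor tyrosine-based activation motif (ITAM), and once its tyrosines are phosphorylated by Src family kinases it recruits the kinase SYK, which leads to PLCG2 and calcium release. Siglecs bind sialic acids on cell surfaces. Many of them carry inhibitory motifs (ITIMs) that recruit the phosphatase SHP-1, product of Ptpn6, while SHIP1, product of Inpp5d, removes a phosphate from the lipid made by phosphoinositide 3-kinase.

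The stretches printed here show which of the receptors and adaptors encode a known signalling motif in their tail. A match is a match of letters and does not show use in these cells. They were read 5′ to 3′ from the principal coding transcript of each gene in GENCODE M21 (GRCm38), and the searches covered the part that encodes the tail behind the last hydrophobic stretch. Capitals mark the codons that define each motif: the tyrosines and the leucine or isoleucine 3 residues after each in an ITAM, the tyrosine with its 2 flanking defining residues in an ITIM or ITIM-like motif, and the tyrosine, asparagine and methionine in the HCST motif.
Tyrobp ITAM: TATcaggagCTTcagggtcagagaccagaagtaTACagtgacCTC
Fcer1g ITAM: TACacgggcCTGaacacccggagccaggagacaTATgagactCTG
Hcst kinase-binding motif: TACatcAACATG
Siglece ITIM: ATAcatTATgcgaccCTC
Siglece ITIM-like motif: ACGgagTACtcagagATA

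The Tyrobp stretch covers bases 274 to 318 of its coding sequence. Fcer1g, the gamma chain of Fc receptors and the other ITAM adaptor of microglia, carried the same spacing over 45 bases, at bases 193 to 237. The first Tyrobp tyrosine also matched the looser ITIM pattern. Hcst, also called DAP10, held the motif that binds phosphoinositide 3-kinase at bases 214 to 225. Siglece held its ITIM at bases 1288 to 1305 and its ITIM-like motif at bases 1357 to 1374. In the transcripts searched, none of these patterns was found in the tails of Trem2, Cd33 or Siglech, of 32, 62 and 23 residues. In mouse, Siglec-H is known to signal through TYROBP.

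Several facts of the libraries bear on every value. Total gene counts lay between 16685959 and 30544144 in knockout libraries and between 13627501 and 28933624 in wild type libraries, and ribosomal RNA took 17.5% of them in wild type replicate 3, 6.2% in knockout replicate 6 and at most 1.51% elsewhere. Microglial transcripts dominated: Csf1r, the receptor of colony stimulating factor, averaged 7715 ± 937.5 CPM in knockout and 9519 ± 1752 CPM in wild type libraries (SD, n = 3 each; CPM are counts per 1000000 after TMM scaling). The TMM factors were 1.1134, 1.002 and 1.0496 in knockout replicates 5, 6 and 7. They were 0.9944, 0.8106 and 1.0595 in wild type replicates 1, 3 and 4, so scaling raised wild type replicate 3 the most. Gad2, the gene that should define the labelled neurons, averaged 87.45 ± 30.78 CPM in knockout and 55.03 ± 44.67 CPM in wild type libraries (SD, n = 3 each), so the labelled cell type was not the main source of RNA by its markers. Gtf2ird1 had 49.69, 40.62 and 48.76 CPM in knockout libraries and 23.35, 31.54 and 52.68 CPM in wild type libraries, so a count over the whole gene did not separate the genotypes. Astrocyte markers summed to between 3390 and 6556 CPM in knockout libraries and between 283.9 and 3451 CPM in wild type libraries, oligodendrocyte markers to between 2085 and 2727 CPM and between 199.2 and 2422 CPM, neuronal markers to between 461.1 and 890.5 CPM and between 173.5 and 668.8 CPM, and microglia markers to between 34340 and 38750 CPM and between 31990 and 47980 CPM (8, 9, 8 and 15 genes, sums over all gene counts). Markers of GABA neurons summed to between 483.1 and 943.5 CPM in knockout and between 156.4 and 643.3 CPM in wild type libraries (12 genes), and genes known to respond to tissue dissociation to between 4586 and 5346 CPM and between 1574 and 5481 CPM (11 genes). Endothelial and mural markers summed to between 135 and 236.7 CPM in knockout and between 56.02 and 144 CPM in wild type libraries (8 genes). The part of these differences in the results was not tested, and in bulk libraries fewer cells of a type and less RNA per cell cannot be told apart.

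Several defining markers of other white blood cells that use these genes were at or near 0. Nkg7, Ncr1 and Klk1 had 0 counts in every library, Cd3e 1 count in all, and Ly6c2 and Ly6d 1 count each. Markers of these lists with a mean above 1 CPM were Ighm, the immunoglobulin heavy chain of B cells, the chemokine receptor gene Ccr2 at 35 to 257 counts per library, and 4 of the 8 dendritic cell genes, Tcf4, Irf8, Pacsin1 (192 to 848 counts) and Bst2 (118 to 547 counts). Ighm carried nearly all of the lymphocyte sum of 141.4 to 199.7 CPM in knockout and 132.9 to 232.5 CPM in wild type libraries (12 genes), and Tcf4 and Irf8 led the dendritic cell sum of 957 to 1186 CPM and 747.7 to 1282 CPM (8 genes). Monocyte and neutrophil markers summed to between 3.476 and 9.134 CPM in knockout and between 5.137 and 6.158 CPM in wild type libraries (10 genes). Hcst is otherwise best known from lymphocytes and Siglech from plasmacytoid dendritic cells. Markers of border-associated macrophages, led by Stab1 and Mrc1, were present and summed to between 1806 and 2443 CPM in knockout libraries and between 1839 and 2590 CPM in wild type libraries (11 genes).

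Per kilobase of annotated exon, the 10 genes spanned a wide range of levels. Tyrobp was the highest, with a mean of 669.3 CPM per kilobase over the 6 libraries and rank 23 of 21865 protein-coding genes. Siglech followed at 346 CPM per kilobase (rank 38), Inpp5d at 162.6 (rank 96) and Trem2 at 135.5 (rank 128). Ptpn6 at 82.52, Cd33 at 73.92 and Plcg2 at 60.58 CPM per kilobase came next, then Syk at 33.11, Siglece at 20.5 and Hcst at 5.592. Most neighbours in this order overlapped in their ranges over libraries. Tyrobp (418.5 to 943.7) overlapped with Siglech (256.4 to 440.2), Inpp5d (124.7 to 206.4) with Trem2 (100.9 to 173.3), Trem2 with Ptpn6 (64.77 to 104.5), Ptpn6 with Cd33 (42.45 to 102.7), Cd33 with Plcg2 (44.49 to 80.76), and Syk (24.52 to 41.33) with Siglece (14.76 to 25.34). Within each of the 6 libraries, however, Tyrobp stood above Siglech, Trem2 above Ptpn6 and Syk above Siglece. The order turned for Inpp5d and Trem2 in wild type replicate 1, and for Ptpn6 and Cd33 in wild type replicates 3 and 4. For Cd33 and Plcg2 it turned in knockout replicate 5. The ranges did not meet between Siglech and Inpp5d, between Plcg2 and Syk, or between Siglece and Hcst (3.557 to 8.912). The place of Trem2 depended on the length used. Its annotated exons cover 4946 bases, a transcript with a retained intron included, and over its principal coding transcript of 1088 bases it stood at 615.8 CPM per kilobase, between Tyrobp at 791.6 and Siglech at 547.5.

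None of the 10 genes passed the threshold between the genotypes. By edgeR's quasi-likelihood test at an adjusted p of 0.05, 0 were higher and 0 lower in knockout libraries, where 0.00581% of the 17221 genes tested were called higher and 0% lower. DESeq2 also called 0 of the 10, where it called 0.0889% of the 16874 genes with an adjusted p higher and 0.0356% lower, and limma-voom called 0, where it called 0.00581% higher and 0% lower. At an unadjusted p under 0.05 by edgeR, Cd33 and Siglece were lower, 2 of 10, where 2.77% of all genes tested were lower by that rule, and 0 of 10 were higher, where 4.48% were. That count depended on the scaling: with library totals alone 0 of the 10 and 131 of all genes were lower by the rule, against 862 genes higher, and scaled to the microglia markers 0 of the 10 and 32 genes were lower, against 1217 higher, where the main counts were 477 lower and 772 higher. It was also 0 of 10 without knockout replicate 5, knockout replicate 6 or wild type replicate 3. There, 128 of 17082, 182 of 18091 and 150 of 18105 genes tested were lower by the rule. It was 4 of 10 without knockout replicate 7 or wild type replicate 4, beside 632 of 17226 and 1158 of 17991 genes. Without wild type replicate 1 it was 3 of 10, beside 1352 of 17320 genes. All 10 fitted log2 fold changes were negative, from -0.66 for Cd33 to -0.12 for Tyrobp, with a median of -0.34. The median over all genes tested was -0.029, and that of the 15 microglia markers, all negative too, was -0.30. After TMM scaling, groups did not overlap for 1 of the 10 genes, Siglece, where 6.68% of all genes tested were separated in that direction, and for 0 of the 10 in the other direction, where 6.34% were. The separation of Siglece was absent by library totals alone.

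**Figure D1:**
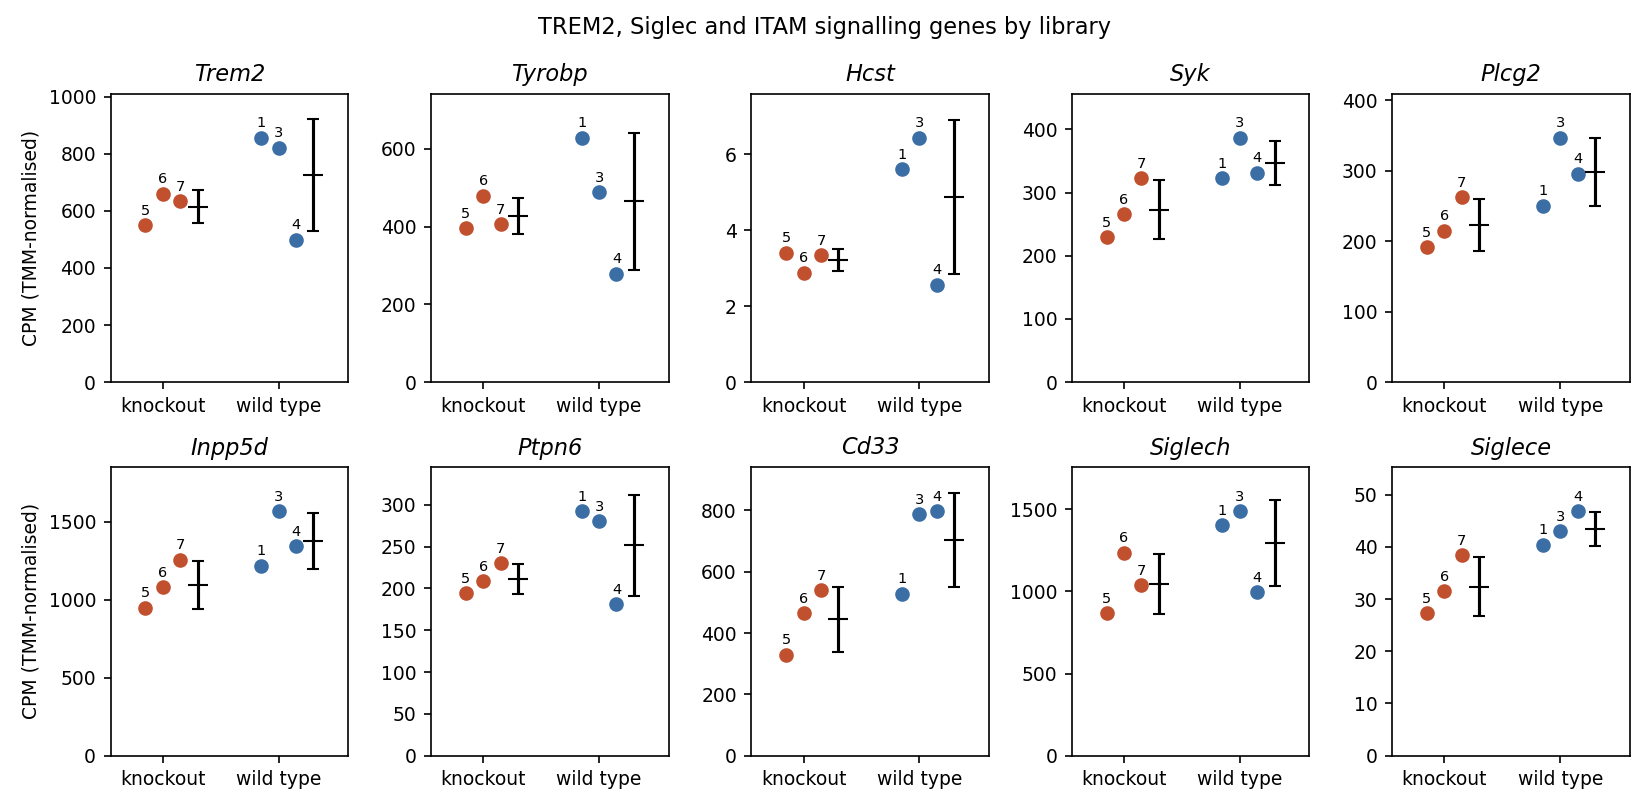
Level of each gene in CPM after TMM scaling, on a linear axis from 0, in the 3 knockout libraries (left, red) and 3 wild type libraries (right, blue); numbers are replicates, and bars are the mean ± SD. Siglece alone shows no overlap between the groups, and wild type replicate 4 lies apart from the other wild type libraries for Trem2, Tyrobp, Hcst, Ptpn6 and Siglech.

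Trem2 lies on chromosome 17 (ENSMUSG00000023992.14, 48346401 to 48354147, plus strand, GRCm38). It had 548.9, 659.7 and 633.6 CPM in knockout replicates 5, 6 and 7, against 857, 821.8 and 499 CPM in wild type replicates 1, 3 and 4. The 3 knockout libraries lay inside the span of the wild type libraries, whose highest and lowest values differed 1.72-fold. The means were 614.1 ± 57.92 CPM in knockout and 725.9 ± 197.3 CPM in wild type libraries (SD, n = 3 each), and the fitted log2 fold change was -0.24 ± 0.23 (SE; adjusted p = 0.748, edgeR). On the fold scale the 95% interval was 0.581 to 1.23. The log2 fold change was -0.11 without wild type replicate 1 and -0.45 without wild type replicate 4.

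Tyrobp and Hcst encode the adaptors and lie end to end on chromosome 7, 126 bases apart. Tyrobp (ENSMUSG00000030579.10, 30413760 to 30417585) is on the plus strand and Hcst (ENSMUSG00000064109.8, 30417712 to 30419854) on the minus strand, and their annotated exons share no base. Tyrobp had 395.8, 479.9 and 405.9 CPM in knockout libraries, against 629.5, 488.4 and 279.1 CPM in wild type replicates 1, 3 and 4. The knockout values again lay within the wild type span, which was 2.26-fold wide, and the fold of 0.917 had a 95% interval of 0.577 to 1.46 (adjusted p = 0.9, edgeR). Its sign was not stable: the log2 fold change was -0.12 ± 0.29 (SE) after TMM scaling, 0.032 with library totals alone, 0.17 when scaled to the microglia markers, 0.15 without wild type replicate 1 and -0.39 without wild type replicate 4. Hcst was sparse, with 87, 48 and 107 counts in knockout libraries and 161, 71 and 45 counts in wild type libraries. Its 3.401, 2.876 and 3.342 CPM in knockout libraries compared with 5.602, 6.434 and 2.568 CPM in wild type libraries, and the log2 fold change was -0.60 ± 0.39 (SE; adjusted p = 0.672, edgeR). It was -0.35 without wild type replicate 3 and -0.90 without wild type replicate 4. Hcst counts amounted to between 0.599% and 0.859% of Tyrobp counts in knockout libraries and between 0.89% and 1.32% in wild type libraries, without overlap, a ratio chosen after its values were seen and not tested.

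The 3 Siglecs all lie on chromosome 7. Cd33 (ENSMUSG00000004609.11, 43524216 to 43544428) and Siglece (ENSMUSG00000030474.9, 43651070 to 43660161) lie on the minus strand, 106641 bases apart, and Siglech (ENSMUSG00000051504.18, 55768178 to 55778925) is on the plus strand. Cd33, the mouse counterpart of a human Siglec with inhibitory motifs that is linked to Alzheimer's disease risk, had 329.9, 464.1 and 539.3 CPM in knockout replicates 5, 6 and 7. It had 527.7, 788 and 797.8 CPM in wild type replicates 1, 3 and 4. The groups met at knockout replicate 7 and wild type replicate 1, and the other libraries were apart. The means of 444.4 ± 106.1 CPM in knockout and 704.5 ± 153.2 CPM in wild type libraries (SD, n = 3 each) gave the lowest log2 fold change of the 10 genes, -0.66 ± 0.25 (SE; adjusted p = 0.637, unadjusted 0.0292, edgeR). The fold was 0.631, with a 95% interval of 0.423 to 0.941.

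Siglece, an inhibitory Siglec of mouse myeloid cells, stood below Cd33 in level per kilobase, as given above. It had 27.29, 31.51 and 38.36 CPM in knockout libraries, against 40.43, 42.95 and 46.86 CPM in wild type libraries. After TMM scaling every knockout library was below every wild type library, at means of 32.39 ± 5.587 and 43.41 ± 3.236 CPM (SD, n = 3 each). The log2 fold change was -0.42 ± 0.16 (SE; adjusted p = 0.637, unadjusted 0.0334, edgeR), and the fold of 0.746 had a 95% interval of 0.574 to 0.97. Per 1000 counts of the 15 microglia markers the groups overlapped, at 0.883, 0.814 and 1.09 counts in knockout libraries and 0.837, 0.923 and 1.55 counts in wild type libraries. By library totals alone the groups overlapped too. Knockout replicate 7 had 1228 Siglece counts of 30544144, a larger share than the 474 of 13627501 in wild type replicate 3. Siglech, a Siglec used as a marker of microglia in the mouse brain, had 867.4, 1235 and 1036 CPM in knockout libraries, against 1402, 1489 and 993.7 CPM in wild type replicates 1, 3 and 4. Its groups overlapped through wild type replicate 4, with a log2 fold change of -0.31 ± 0.22 (SE; adjusted p = 0.69, edgeR), which was -0.19 without knockout replicate 5 and -0.46 without wild type replicate 4.

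Syk, Plcg2 and Inpp5d, the kinase, the phospholipase and the lipid phosphatase behind the receptors, shared an order of libraries after TMM scaling. Syk, on chromosome 13 (ENSMUSG00000021457.14, 52583173 to 52648792, plus strand), had 229.6, 266.1 and 322.8 CPM in knockout replicates 5, 6 and 7, against 322.7, 387 and 331.6 CPM in wild type replicates 1, 3 and 4. Plcg2, on chromosome 8 (ENSMUSG00000034330.10, 117498291 to 117635142, plus strand), had 191.2, 215 and 262.7 CPM in knockout libraries, against 250.5, 347.1 and 295.8 CPM in wild type libraries. Inpp5d, on chromosome 1 (ENSMUSG00000026288.14, 87620312 to 87720507, plus strand), had 948.1, 1080 and 1258 CPM in knockout libraries, against 1218, 1569 and 1344 CPM in wild type libraries. In each of the 3 genes knockout replicate 5 was the lowest library and wild type replicate 3 the highest on this scale, and the groups overlapped through knockout replicate 7 and wild type replicate 1. The TMM factor of wild type replicate 3 was 0.8106, the lowest of the libraries. By library totals alone knockout replicate 5 stayed the lowest, but wild type replicate 4 was the highest, and the 3 genes no longer shared 1 order. For Syk the 2 libraries nearly met, at 322.8 and 322.7 CPM. The log2 fold changes were -0.35 ± 0.17 for Syk, -0.42 ± 0.18 for Plcg2 and -0.33 ± 0.19 for Inpp5d (SE), with adjusted p by edgeR of 0.637, 0.637 and 0.646. That of Inpp5d was -0.22 without wild type replicate 3.

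Ptpn6, the gene of SHP-1 on chromosome 6 (ENSMUSG00000004266.15, 124720707 to 124738714, minus strand), followed the adaptors instead. It had 194.1, 208.8 and 230 CPM in knockout libraries, against 292.7, 280.3 and 181.5 CPM in wild type replicates 1, 3 and 4. Wild type replicate 4 was the lowest of all 6 libraries, and the log2 fold change was -0.25 ± 0.20 (SE; adjusted p = 0.71, edgeR). Without wild type replicate 1 it was -0.13, and without wild type replicate 4 it was -0.44. An annotated antisense gene, Gm20531, shares 195 exonic bases with Ptpn6, and the sources used here do not give the strand setting of the counting, so that part of the count is uncertain.

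**Figure D2:**
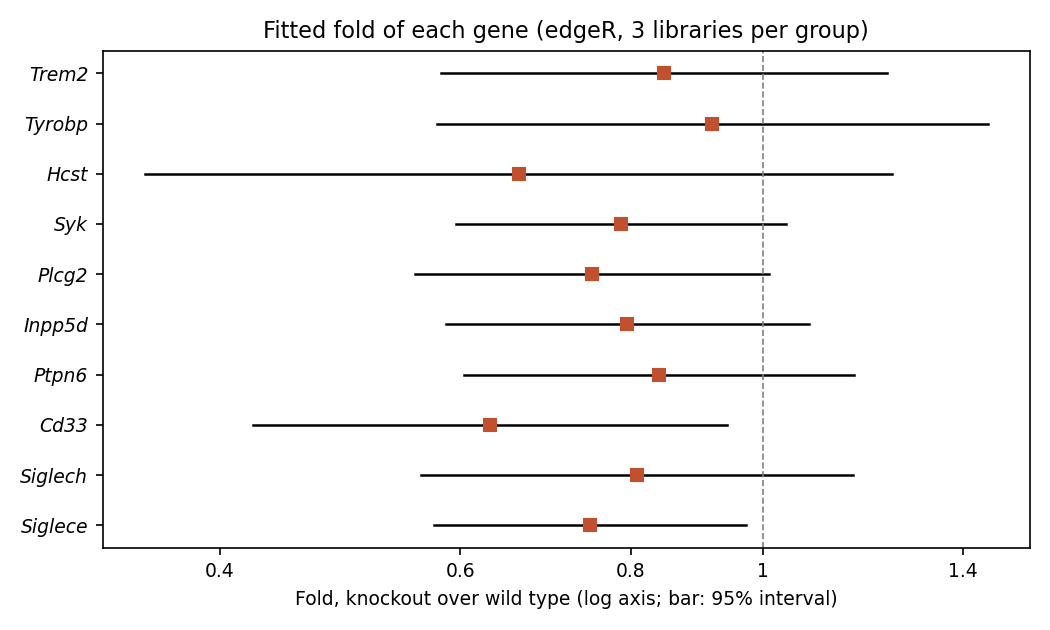
Fitted fold of knockout over wild type for each gene (square) with its 95% interval (line) on a log axis, from edgeR with 3 libraries per group. All 10 squares lie left of 1, and the intervals of Cd33 (0.423 to 0.941) and Siglece (0.574 to 0.97) alone do not reach it before adjustment.

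Within wild type, the 10 genes differed in opposite directions between replicates 1 and 4. Trem2, Tyrobp, Hcst, Ptpn6 and Siglech were higher in replicate 1, at 1.72, 2.26, 2.18, 1.61 and 1.41 times their level in replicate 4. Syk, Plcg2, Inpp5d, Cd33 and Siglece were lower in replicate 1, at 0.973, 0.847, 0.906, 0.661 and 0.863 times their level in replicate 4. This split was made after the values were seen and has no test. It crosses the roles of the genes, since the activating adaptors stood with the phosphatase gene Ptpn6 and the phospholipase gene Plcg2 with the inhibitory Siglece. Syk, at 0.973, hardly differed between the replicates. Wild type replicate 4 also had the most reads outside annotated genes (58.2%, against 57.6% in replicate 3 and 40% in replicate 1) and the lowest sum of microglia markers (31990 CPM, against 37680 and 47980 CPM). The part of these differences in the split was not tested.

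**Figure D3:**
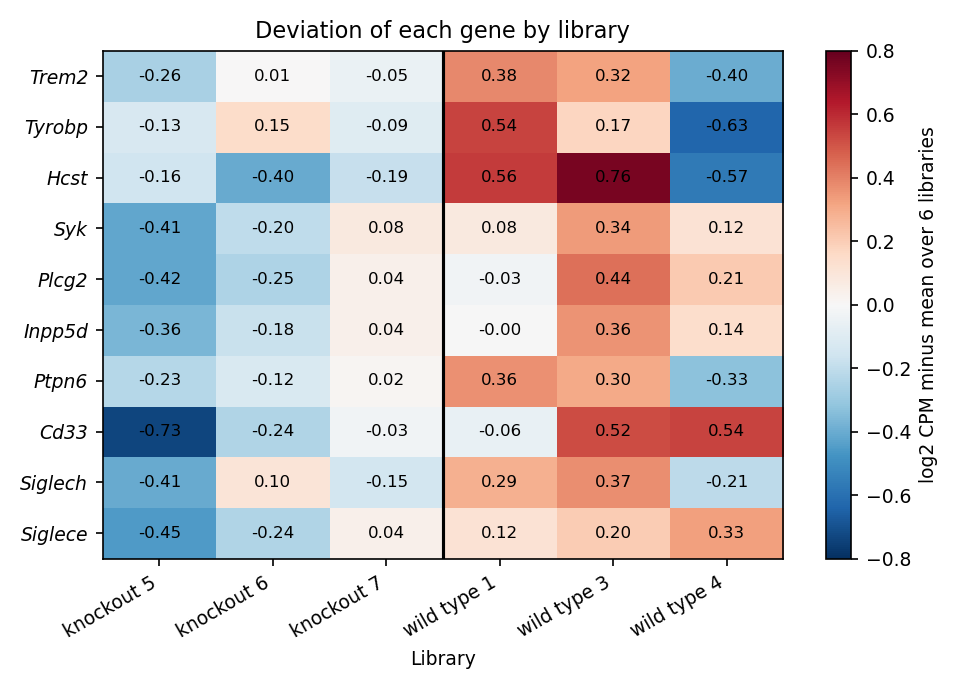
Log2 CPM of each gene in each library minus its mean over the 6 libraries, with knockout libraries left of the line and wild type libraries right of it. Wild type replicate 4 is negative for Trem2, Tyrobp, Hcst, Ptpn6 and Siglech (-0.63 to -0.21) and positive for Syk, Plcg2, Inpp5d, Cd33 and Siglece (0.12 to 0.54).

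Set against the microglial pool, Trem2 was nearly flat. Per 1000 counts of the 15 microglia markers, Trem2 had 17.8, 17 and 18.1 counts in knockout libraries and 17.7, 17.7 and 16.5 counts in wild type replicates 1, 3 and 4. Scaled to those markers, the edgeR log2 fold change of Trem2 was 0.026 (adjusted p = 0.983), that of Ptpn6 0.012 (0.992) and that of Tyrobp 0.17 (0.914), so the sign of these 3 genes turned. Ptpn6 had between 5.39 and 6.56 counts per 1000 in knockout libraries and between 6 and 6.06 in wild type libraries, and Siglech between 28.1 and 31.9 and between 29 and 32.9. Cd33 varied the most, with 10.7, 12 and 15.4 counts per 1000 in knockout libraries and 10.9, 16.9 and 26.4 in wild type replicates 1, 3 and 4. Its log2 fold change on this scale was -0.51 (adjusted p = 0.839, edgeR). The median of all genes tested shifted to 0.18 on this scale, and with library totals alone to 0.11. The median of the 10 genes was -0.14 and -0.19 on these scales, against -0.34 after TMM scaling. Minus the median of all genes it was -0.32 and -0.30, against -0.31. A change of scaling applies the same library factors to all genes, so much of its shift falls out of this difference, which is no check on the result. The shift was not equal for single genes. Between TMM scaling and scaling to the microglia markers, the log2 fold change of Cd33 went from -0.66 to -0.51 and that of Hcst from -0.60 to -0.28.

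**Figure D4:**
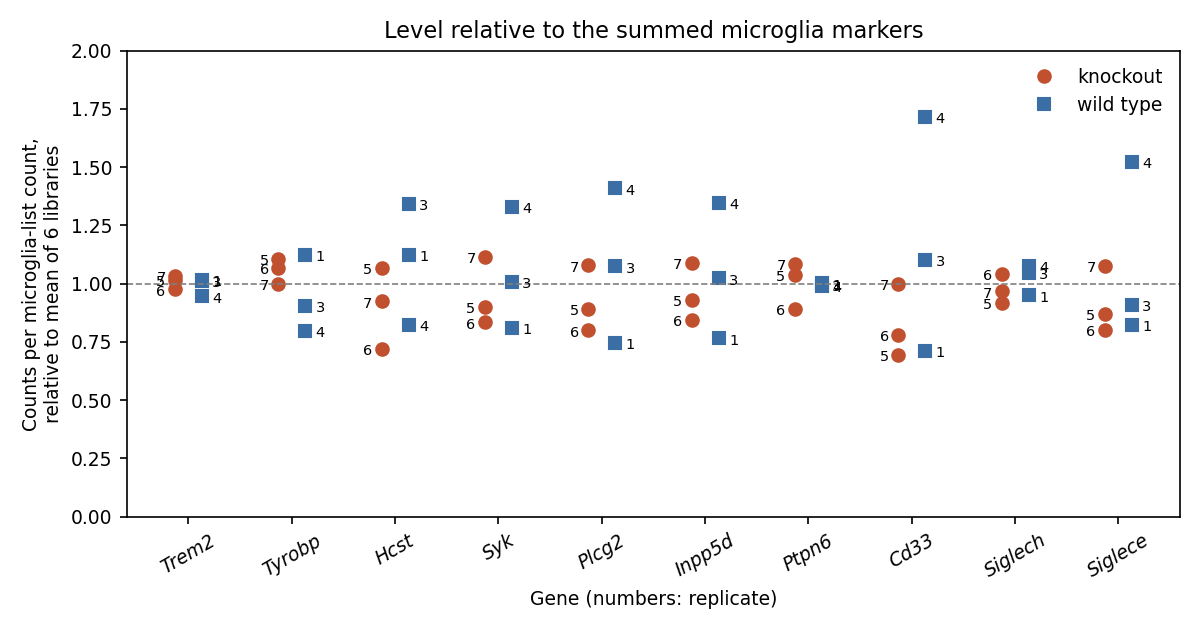
Counts of each gene per count of the 15 summed microglia markers, divided by the mean of the 6 libraries, for knockout (red circles) and wild type (blue squares) libraries, numbered by replicate. Trem2 lies close to 1 in all 6 libraries, and Cd33 and Siglece in wild type replicate 4 lie farthest above it.

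Ratios between partners within a library, which need no scaling, also overlapped between the genotypes, other than Hcst over Tyrobp. Tyrobp had between 0.641 and 0.728 counts per Trem2 count in knockout libraries and between 0.559 and 0.735 in wild type libraries. Inpp5d had between 3.9 and 4.13 counts per Syk count in knockout libraries and between 3.78 and 4.05 in wild type libraries, and Plcg2 between 0.808 and 0.833 and between 0.776 and 0.897. Cd33 had 0.601, 0.704 and 0.851 counts per Trem2 count in knockout libraries and 0.616, 0.959 and 1.6 in wild type replicates 1, 3 and 4. Wild type replicate 4 was thus the library with the most Cd33 and the least Trem2.

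The other genes of the pathway were given by 7 lists of 99 genes, of which 81 were tested. None passed the edgeR threshold. The fitted log2 fold change was negative for 65 and positive for 16, where 9256 of the 17221 genes tested were negative, with a median of -0.26, and 8 were lower and 0 higher at an unadjusted p under 0.05. After TMM scaling, groups did not overlap for 10, all lower in knockout libraries, so 10 of 81 stood beside 6.68% of all genes tested by that rule, and 8 of 81 beside 2.77%.

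Among further TREM family members only Treml1 and Treml2 were tested, at 3.092 ± 0.4946 and 18.16 ± 3.816 CPM in knockout libraries and 4.133 ± 1.48 and 19.48 ± 2.063 CPM in wild type libraries (SD, n = 3 each). Trem1, which amplifies inflammation on blood myeloid cells, had 1, 1 and 0 counts in knockout libraries and 0, 0 and 2 counts in wild type libraries. Among 6 further Siglecs, 5 were tested. Siglecf, known from eosinophils and macrophages, had 30.38, 36.55 and 31.33 CPM in knockout libraries and 49.24, 51.38 and 36.01 CPM in wild type libraries (log2 fold change -0.48 ± 0.17, SE; adjusted p = 0.637, edgeR). Siglecg, an inhibitory Siglec of B cells, had 2.228, 4.014 and 4.842 CPM in knockout libraries and 5.115, 9.606 and 6.906 CPM in wild type libraries, without overlap (adjusted p = 0.637, edgeR). Mag, the Siglec of myelin, differed in the other direction, with 75.06, 48.71 and 90.4 CPM in knockout libraries and 71.92, 31.63 and 22.66 CPM in wild type libraries (adjusted p = 0.646, edgeR), beside the oligodendrocyte markers given above. Siglec15 had 0 counts in every library.

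Of 17 further ITAM adaptors and partner receptors, 6 were tested. Fcer1g had 111.1, 110.8 and 119.7 CPM in knockout libraries and 168.2, 155.6 and 102.3 CPM in wild type replicates 1, 3 and 4, the pattern of Tyrobp within wild type (adjusted p = 0.658, edgeR). Clec5a, a lectin that pairs with TYROBP, averaged 50.54 ± 10.65 CPM in knockout and 57.24 ± 21.34 CPM in wild type libraries (SD, n = 3 each). Cd79b, a signalling chain of the B cell receptor, and Cd300ld had log2 fold changes of -0.43 and -0.29 (adjusted p = 0.637 and 0.83, edgeR). Of the untested receptors in this list, Sirpb1a, Sirpb1b, Sirpb1c and Klrk1 had at most 2 counts in any library. Pilrb1 and Pilrb2 had at most 4, and Cd300lb had 4 to 17.

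All 15 ITIM receptors were tested and 12 had a negative log2 fold change, with a median of -0.30. Sirpa, the receptor of the ligand CD47, which restrains phagocytosis, was the most abundant. It had 1822, 2153 and 2525 CPM in knockout libraries and 2529, 3182 and 2606 CPM in wild type libraries (log2 fold change -0.36 ± 0.21, SE; adjusted p = 0.649, edgeR). Its groups did not overlap after TMM scaling, where 6.68% of all genes tested were separated lower, but knockout replicate 7 and wild type replicate 1 nearly met. By library totals alone its groups overlapped, with knockout replicate 7 above wild type replicate 1. Its tail held 3 matches to the ITIM pattern. Lair1, a collagen receptor with 2 such matches, had 442.8, 551.3 and 516.7 CPM in knockout libraries and 622, 701.3 and 389.7 CPM in wild type libraries (adjusted p = 0.818, edgeR). Cd300a, Pilra and Cd300lf, inhibitory receptors of myeloid cells, had the smallest p, with log2 fold changes of -0.55, -0.65 and -0.93 (adjusted p = 0.637 each, edgeR).

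Among the Src family and its regulators, 13 of 14 tested genes had a negative value, with a median of -0.26. Lyn, the main Src family kinase of myeloid cells, averaged 502.6 ± 67.01 CPM in knockout and 605.4 ± 115.3 CPM in wild type libraries, and Csk, which holds these kinases inactive, 164.2 ± 21.28 and 210.1 ± 35.05 CPM (SD, n = 3 each; adjusted p = 0.694 and 0.637, edgeR). Pag1, an anchor of Csk, had a log2 fold change of -0.40 (adjusted p = 0.638, edgeR). Fyn, which neurons also use, was the exception at 0.55 (adjusted p = 0.638, edgeR).

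Of 30 tested genes of downstream signalling, 27 were negative and 6 did not overlap between groups, all lower in knockout libraries, where 6.68% of all genes tested were separated lower and 6.34% higher. Dok3, an adaptor that restrains ITAM signalling, had the smallest p, with 33.54, 32.71 and 37.73 CPM in knockout libraries and 51.81, 50.39 and 44.57 CPM in wild type libraries (log2 fold change -0.50 ± 0.13, SE; adjusted p = 0.637, unadjusted 0.00626, edgeR). Card9, an adaptor that links SYK to NF-kB, and Pik3cg, a catalytic subunit of phosphoinositide 3-kinase, were next, at log2 fold changes of -0.42 ± 0.15 and -0.47 ± 0.18 (SE; adjusted p = 0.637 each, edgeR). Pik3r1 and Vav1, the most abundant of the list, had values of -0.09 and -0.26 (adjusted p = 0.854 and 0.657, edgeR).

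The list of TREM2 ligands and shedding enzymes had a median of 0.07, with 5 of 9 tested genes positive. It also held other genes, namely Ctnnb1, Ms4a4a, Ms4a6d and the microglia marker Csf1r, and its median was the value of Ms4a4a. Apoe, the gene of an apolipoprotein (a protein of lipoproteins) that TREM2 binds, had 1717, 1292 and 1576 CPM in knockout libraries and 1655, 949.6 and 529.3 CPM in wild type libraries. Clu, the gene of another such apolipoprotein, had 517.6, 193.4 and 312.5 CPM in knockout libraries and 230.8, 55.28 and 8.96 CPM in wild type libraries. Both genes are also expressed by astrocytes, whose markers ranked wild type replicates 1, 3 and 4 in the same order, at sums of 3451, 468 and 283.9 CPM. The sums of oligodendrocyte markers, microglia markers, endothelial and mural markers, lymphocyte markers and dissociation genes had that order too. Those of neuronal, GABA neuron, border-associated macrophage, dendritic cell, and monocyte and neutrophil markers did not. The part of any of these in the values of Apoe and Clu was not tested. The log2 fold changes were 0.55 ± 0.39 for Apoe, 1.79 ± 0.97 for Clu and 0.24 ± 0.17 for App (SE; adjusted p = 0.683, 0.638 and 0.682, edgeR).

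**Figure D5:**
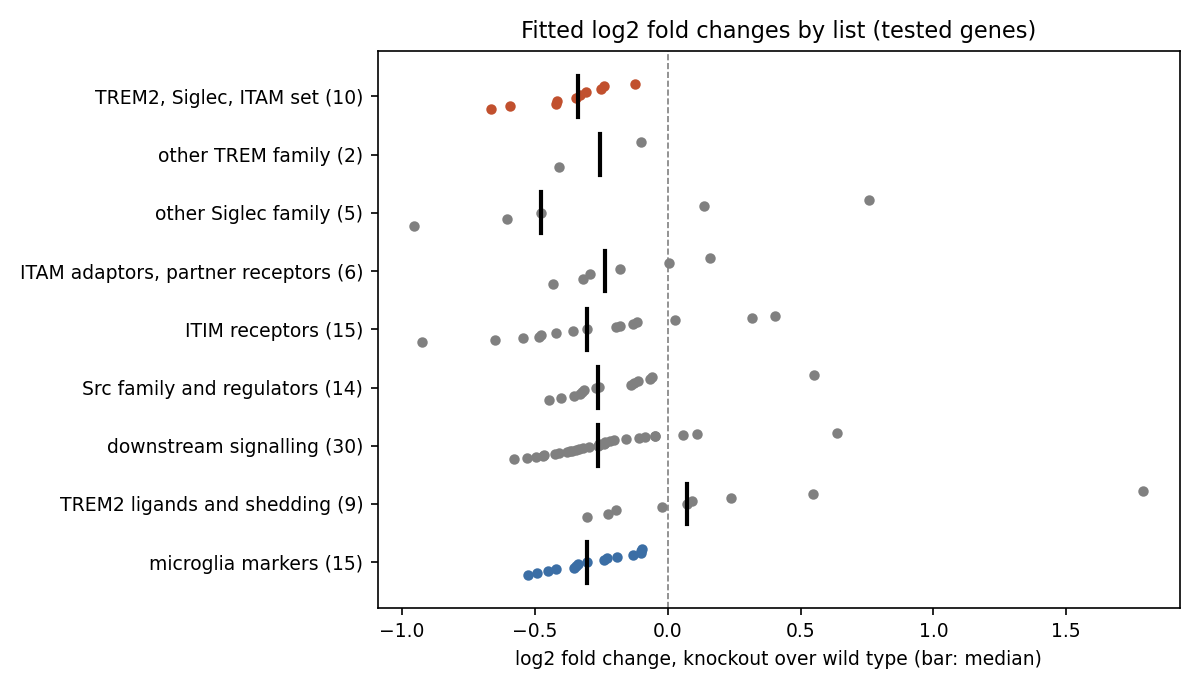
Fitted log2 fold change of knockout over wild type for every tested gene of each list (points, with their number in brackets) and the list median (bar). The 10 genes described here (red, median -0.34) and the microglia markers (blue, median -0.30) lie left of 0 throughout, and Clu at 1.79 lies farthest to the right.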

How the data were processed

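Per the labels' protocols, total RNA was taken with the mirVana kit and made into libraries with Illumina's TruSeq Stranded Total RNA kit, which keeps strand. The authors deposited 1 table of whole-number read counts per gene for each library, with no normalization. Per the submitters' processing notes, Trim Galore 0.60, STAR 2.7, HTSeq 1.31 and the build mm10 were used. The sources used here give neither the annotation release, nor the strand setting, nor the handling of reads with several alignments. Lines naming no gene stayed out of totals and tests: reads outside genes were 40% to 58.2% and ambiguous reads 1.94% to 14.5% of all reads. Of 53379 identifiers 53274 matched GENCODE M21.

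Genes were tested with the quasi-likelihood test of edgeR 4.0.16 in R 4.3.3 (TMM, default expression filter, robust shrinkage, Benjamini-Hochberg adjustment over 17221 genes, threshold 0.05, two-sided), checked on simulated data. DESeq2 1.42.0 and limma 3.58.1 served as alternatives. A zero count allows up to 3 counts, or 0.0982 to 0.22 CPM, which covers counting error only. Replicates of a group differed beyond sampling noise (chi-square per degree of freedom 49.9 or more). Tails began after the last window of 19 residues with a mean hydropathy of 1.6. The patterns were tyrosine, any 2 residues, then leucine or isoleucine, repeated after 6 to 12 residues (ITAM); isoleucine, leucine, valine or serine, any residue, tyrosine, any 2, then leucine, isoleucine or valine (ITIM); threonine, any residue, tyrosine, any 2, then isoleucine or valine (ITIM-like); and tyrosine, any residue, asparagine, methionine. Exact stretches of 50 bases shared with transcripts of another gene made up 5.01% of those of Ptpn6, all with Gm20531, and at most 0.572% for the other genes.

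The 10 genes and all lists were chosen with earlier results of these data known. Named genes were the 10, plus from each other list the 3 smallest p-values and 2 highest levels; others were chosen after their values were seen.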

Additional observations from a re-analysis of the deposited data

How the results depend on the processing

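Across the 18 alternatives run, none of the 10 genes and none of the other pathway genes passed the threshold in either direction, and the lowest adjusted p of any of the 10 was 0.132, for Cd33 without wild type replicate 1. The median log2 fold change of the 10 stayed negative, from -0.45 to -0.24 without 1 library and at -0.14 when scaled to the microglia markers. Signs turned for Tyrobp with library totals alone (0.032), for Trem2, Tyrobp and Ptpn6 when scaled to the microglia markers (0.026, 0.17 and 0.012), and for Tyrobp without 1 library (-0.39 to 0.15, the highest without wild type replicate 1); the cause was not tested. Over all genes, calls were 2 higher when scaled to the microglia markers, 15 higher and 6 lower with DESeq2, 4 higher and 1 lower with every gene of at least 1 count, and 0 higher with protein-coding genes alone, which leaves out the 1 gene called, Rpsa-ps10. Without 1 library they ran from 1 to 306 higher and from 0 to 15 lower, the most without wild type replicate 1. Without knockout replicate 6 and wild type replicate 3, the libraries with the most ribosomal RNA and an alternative chosen after seeing the data, 0 genes were called in either direction, at 417 higher and 53 lower with an unadjusted p under 0.05. No paired analysis was possible because the groups share no replicate numbers. Depth limits Hcst, with 45 to 161 counts per library.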
